A study of Bos taurus with 6 samples.

Results

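The 2 mature miRNAs of the miR-126 precursor, bta-miR-126-5p and bta-miR-126-3p, were followed in the liver of Wye Angus steers raised on grass or on grain. Both were found by their exact names among 1030 mature miRNAs listed for each library, and each stands on a single row, because each has 1 precursor. Small RNA libraries were made from 3 grass-fed animals, 21 months old, and 3 grain-fed animals, 14 months old, with 1 library per animal. The first group ate forage such as alfalfa and pasture grass, and the second a ration built on corn and soybean. All animals came from a closed herd and were sampled at market weight, which the diets reached at different ages, so diet and age cannot be told apart. The question for miR-126 is whether its level, or the balance between its arms, differed between these feeding regimens.

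miR-126 is the best known miRNA of endothelial cells, the cells that line blood vessels and, in the liver, the sinusoids. Its hairpin is transcribed with EGFL7, a gene for a protein that endothelial cells secrete around growing vessels. The 3p arm is known to repress SPRED1 and PIK3R2, inhibitors of the signalling pathways downstream of VEGF, and the 5p arm is known to repress DLK1 in endothelial cells. RefSeq, on its newer assembly ARS-UCD2.0 and not the ARS-UCD1.2 of the deposited counts, places the hairpin (MIR126, gene ID 790994) inside EGFL7 (gene ID 613671). The seeds of the arms differ in sequence, so each arm has its own set of targets.

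The libraries differed in depth, with 3824592 to 6133960 miRNA counts in the grass-fed group and 464875 to 892929 in the grain-fed group. Levels are given as CPM, the counts scaled to a common library total, after TMM scaling, which corrects for differences in composition between libraries. Reads were not divided by length, since a read covers a whole mature miRNA. bta-miR-122, the main miRNA of hepatocytes, had the highest mean level on both diets, at 345228 ± 97629 CPM on grass and 159287 ± 35804 CPM on grain (SD, n = 3 each). The TMM factor of grass-fed replicate 2 was 0.692, the lowest of the 6 libraries, where the others lay between 0.936 and 1.21.

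Both arms were detected in every library, and the 3p arm was the abundant one. In the grass-fed animals (replicates 1, 2 and 3, here and below in this order) bta-miR-126-3p had 72013, 45018 and 44692 counts, and in the grain-fed animals it had 9226, 8378 and 7657 counts. bta-miR-126-5p had 4699, 3564 and 2539 counts in the grass-fed libraries and 502, 522 and 423 in the grain-fed libraries. Among all listed miRNAs the 3p arm ranked between 11 and 18 in the 6 libraries and the 5p arm between 51 and 75. Counting error was small for both arms. It was at most 4.86% of the value for the 5p arm and at most 1.14% for the 3p arm, against a coefficient of variation between libraries of the same diet of 19.4% and 22.4% for the 5p arm and 19.0% and 20.2% for the 3p arm, grass-fed first. With 1 library per animal, that variation also holds library preparation and scaling.

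The level of bta-miR-126-3p was not called different between the diets, and the difference was smaller than the spread between animals. The grass-fed animals had 15162, 10609 and 11731 CPM, and the grain-fed animals had 8987, 11863 and 13585 CPM. The highest library was grass-fed and the lowest grain-fed, and of the other libraries both grain-fed ones lay above both grass-fed ones. The mean was 12501 ± 2372 CPM on grass and 11478 ± 2323 CPM on grain (SD, n = 3 each). The log2 fold change of grass-fed against grain-fed was 0.12 (standard error 0.21), with FDR = 0.782 in the quasi-likelihood test of edgeR with Benjamini-Hochberg adjustment over 456 miRNAs. The 95% interval of the log2 fold change was -0.34 to 0.59, and these libraries cannot tell apart differences within it. In whole liver, a difference in the number of endothelial cells and one in miR-126 per cell cannot be told apart.

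bta-miR-126-5p was likewise not called. The grass-fed animals had 989, 840 and 666 CPM, and the grain-fed animals had 489, 739 and 750 CPM. The 2 highest libraries were grass-fed, but grass-fed replicate 3 lay below 2 of the grain-fed libraries, so the ranges overlapped. The mean was 832 ± 162 CPM on grass and 660 ± 148 CPM on grain (SD, n = 3 each). The edgeR fit gave a log2 fold change of 0.34 with a standard error of 0.24, a 95% interval of -0.19 to 0.87 and FDR = 0.422. Exact two-sided permutation tests over the libraries gave p = 0.3 for the 5p arm and p = 0.7 for the 3p arm, where 3 against 3 cannot go below 0.1. By comparison, 19.1% of all tested miRNAs passed FDR 0.1 in the same fit, and 32.9% had no overlap of CPM ranges between the diets. The tested miRNAs include 13 with no grain-fed count, which passed the count filter through the deeper grass-fed libraries alone.

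**Figure D1:**
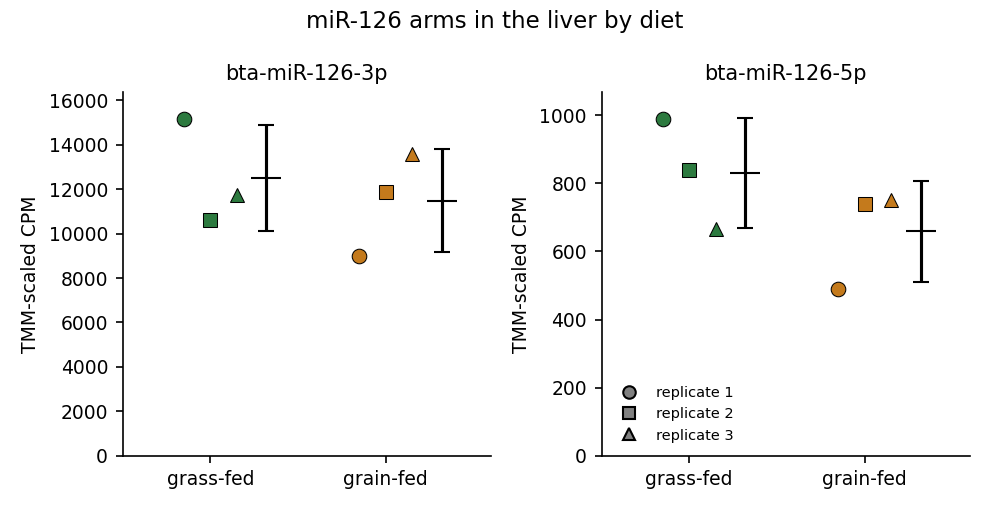
TMM-scaled CPM (vertical axes, from 0) of bta-miR-126-3p and bta-miR-126-5p in each library, by diet. Points are single animals, shaped by replicate number, and black bars are the mean ± SD of 3 animals. The ranges of the diets overlap for both arms, and grain-fed replicate 1 is the lowest library for each.

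The direction of the small differences depended on how libraries were scaled. With libraries scaled by total count alone, both arms had lower means in grass-fed liver, with 723 ± 180 against 765 ± 181 CPM for the 5p arm and 11070 ± 3464 against 13333 ± 3072 CPM for the 3p arm (SD, n = 3 each, grass-fed first). Scaling moved all miRNAs together, since the median log2 fold change over the 456 tested miRNAs was 0.13 after TMM scaling, -0.29 with total counts and 0.31 with upper-quartile scaling. Relative to that median, the 3p arm stood at -0.01, 0.02 and 0.01 and the 5p arm at 0.21, 0.21 and 0.21 on the log2 scale, in the same order. Over all settings, single libraries left out included, the distance from the median lay between -0.18 and 0.14 for the 3p arm and between 0 and 0.33 for the 5p arm, which was at 0 without grain-fed replicate 1 and at 0.076 without grass-fed replicate 1. With TMM scaling the 3p arm was close to the middle of all tested miRNAs, with 224 of 456 below it, and the 5p arm had 271 below it. The smallest FDR of the 5p arm over all settings was 0.142, with upper-quartile scaling, and that of the 3p arm was 0.322, in the same setting.

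**Figure D2:**
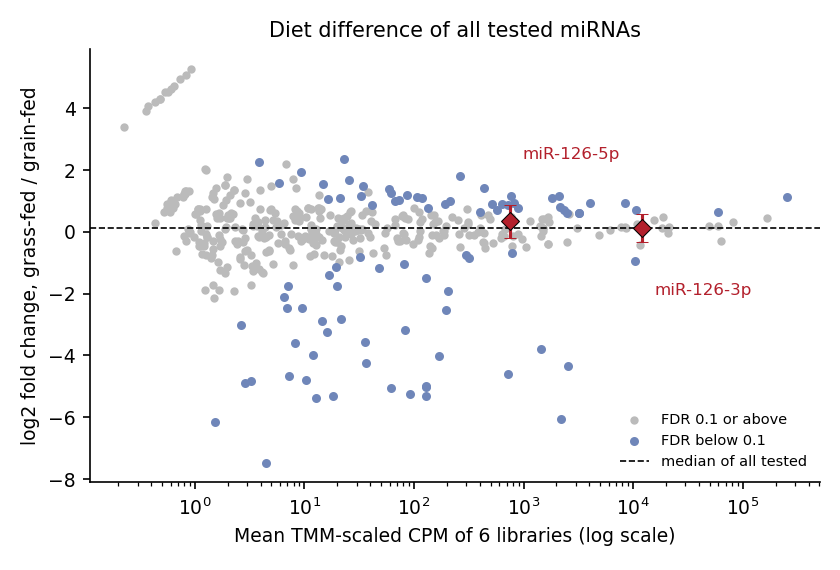
Log2 fold change of grass-fed against grain-fed liver (vertical axis) over the mean TMM-scaled CPM of the 6 libraries (horizontal axis, log scale) for 456 tested miRNAs. Blue points passed FDR 0.1 in edgeR, red diamonds are the miR-126 arms with their 95% intervals, and the dashed line is the median of 0.13. Both intervals include 0 and the median line, and the straight streak at the upper left is made of miRNAs with no grain-fed count, whose fitted change depends on the prior count.

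The balance between the arms was a measurement that no scaling of libraries can move, because both arms are read in the same library. The 5p arm held 6.13% of the counts of both arms in grass-fed replicate 1 (exact 95% binomial interval 5.96% to 6.30%), 7.34% in replicate 2 (7.11% to 7.57%) and 5.38% in replicate 3 (5.17% to 5.58%). In the grain-fed libraries it held 5.16% in replicate 1 (4.73% to 5.62%), 5.87% in replicate 2 (5.39% to 6.37%) and 5.24% in replicate 3 (4.76% to 5.74%). These intervals cover counting error only, as reads without molecular identifiers are not independent molecules. The 3 grass-fed libraries were apart from each other beyond counting error, with no overlapping pair of intervals, while all 3 pairs of grain-fed intervals, which are wider, overlapped.

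Between the diets the arm balance was not called different. For each 5p read there were 15.2 ± 2.49 reads of the 3p arm in grass-fed and 17.5 ± 1.27 in grain-fed liver (SD, n = 3 each). The 5p share was 6.28% ± 0.99 in grass-fed and 5.42% ± 0.39 in grain-fed liver, and grass-fed replicate 3 lay within the grain-fed range. The log2 ratio of 5p to 3p was higher by 0.22 in grass-fed liver (standard error 0.17, FDR = 0.342 for the interaction of arm and diet in edgeR over 36 duplexes), and the 95% interval of the ratio of ratios was 0.907 to 1.49. The exact two-sided permutation test of the log2 ratio over libraries gave p = 0.2, with 0.1 the smallest value possible. The difference was 0.09 without grass-fed replicate 2, the library with the highest 5p share.

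**Figure D3:**
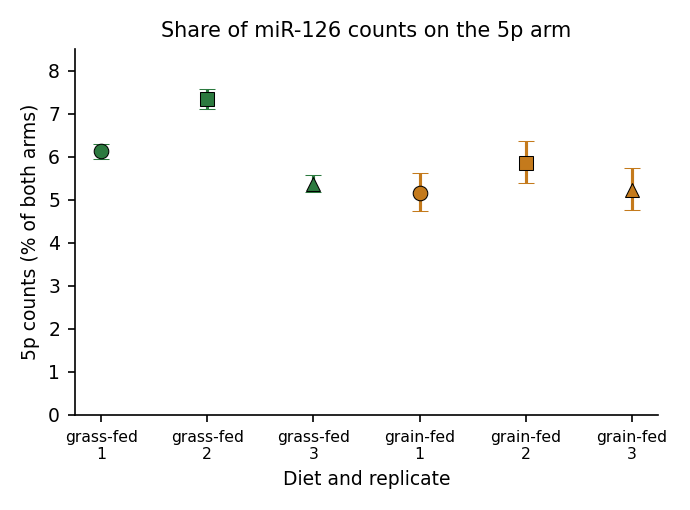
Share of the counts of both miR-126 arms that fell on the 5p arm, in percent (vertical axis, from 0), for each library by diet and replicate number. Bars are exact 95% binomial intervals. All libraries lie between 5.16% and 7.34%, and grass-fed replicate 2 is the highest.

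The balance of miR-126 was set beside that of other precursors. Of 82 duplexes listed with rows named 5p and 3p, 36 had both arms detected, each arm having more than 2 counts in 2 or more libraries. The 3p arm was the larger one on average in 15 of them and the 5p arm in 21, and 30 kept the same dominant arm in all 6 libraries, miR-126 among them. Only 6 duplexes had a lower mean 5p share than the 5.85% of miR-126, whose neighbours in that order were miR-10172 with 3.87% and miR-151 with 7.30%. The change in arm ratio of miR-126 was among the smaller ones, with 32 of the 36 duplexes showing a larger absolute change in log2 ratio and a median absolute change of 0.82. Most of those duplexes rest on thin counts, as 22 of the 32 had an arm with under 10 counts in some library, whereas miR-126 had at least 423 counts on each arm in each library.

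In the same fit 7 of 36 duplexes, or 19.4%, passed FDR 0.1 in edgeR, and miR-126 was not among them. The number of calls was 4 of 34 tested duplexes without grass-fed replicate 1 and 12 of 35 without grass-fed replicate 3, and miR-126 had none in either. Among the called duplexes, the largest rises of the ratio of 5p to 3p in grass-fed liver were those of miR-2411, miR-27a and miR-99a, with log2 changes in ratio of 3.45, 1.29 and 1.06. The called falls were those of miR-345, miR-30b and miR-365, with -2.38, -2.12 and -1.07. The lowest count of an arm in any library was 2, 1 and 20 for the rises and 4, 1 and 14 for the falls, in these orders. For miR-2411 both arms were lower on grass, with log2 fold changes of -1.10 for the 5p arm and -4.61 for the 3p arm. Ranges of the 5p share did not overlap between the diets in 33.3% of the duplexes, and those of miR-126 did overlap.

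**Figure D4:**
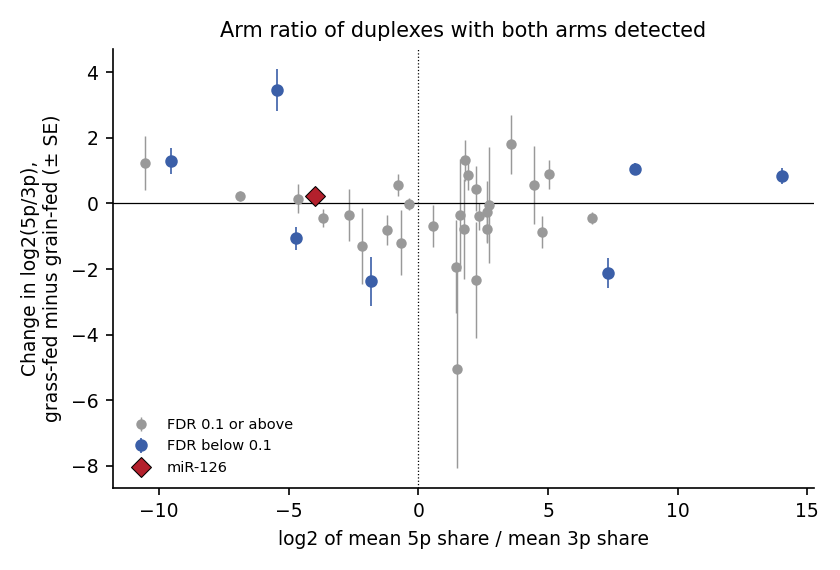
Change in log2(5p/3p) from grain-fed to grass-fed liver with its standard error (vertical axis) over the log2 of mean 5p share over mean 3p share (horizontal axis) for 36 duplexes with both arms detected. Blue points passed FDR 0.1 for the interaction of arm and diet in edgeR. miR-126 (red diamond) lies left of the dotted line, where the 3p arm dominates, at a change of 0.22.

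The level of miR-126 relative to miRNAs of hepatocytes had no single direction over the 4 used as references. For every 100 counts of bta-miR-122 there were 5.76, 2.50 and 4.16 counts of the summed miR-126 arms in the grass-fed animals and 5.90, 6.48 and 11.7 in the grain-fed animals. The ranges did not overlap, although the highest grass-fed and the lowest grain-fed library were close. The log2 ratio differed by -0.96 (exact two-sided permutation p = 0.1, the smallest that 3 against 3 allows, so 0.05 cannot be reached). Per 100 counts of bta-miR-192, another miRNA of hepatocytes, the arms had 18.6 ± 4.27 counts in grass-fed and 26.1 ± 2.59 counts in grain-fed liver (SD, n = 3 each, exact permutation p = 0.1), again without overlap and lower on grass. Per 100 counts of bta-miR-194 the order was the opposite, with 141 ± 31.3 counts in grass-fed and 92.6 ± 8.70 counts in grain-fed liver, without overlap (exact permutation p = 0.1). Per 100 counts of bta-miR-148a the ranges overlapped, with 7.68 ± 3.25 and 8.74 ± 2.08 counts (exact permutation p = 0.7, grass-fed first). The bta-miR-148a and bta-miR-194 references were chosen after the other ratios had been seen.

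These ratios carry the reference as well as miR-126. After TMM scaling edgeR called bta-miR-122 itself higher on grass, by 1.12 on the log2 scale (FDR = 0.00417), and bta-miR-192 by 0.65 (FDR = 0.0285). It did not call bta-miR-148a, at 0.46 (FDR = 0.212), or bta-miR-194, at -0.43 (FDR = 0.300). Against bta-miR-143, a miRNA of smooth muscle and stellate cells which changed by 0.33 on the log2 scale without a call (FDR = 0.271, edgeR), the ranges overlapped, with 14.95 ± 3.51 summed miR-126 counts per 100 in grass-fed and 17.1 ± 4.81 in grain-fed liver (SD, n = 3 each, exact two-sided permutation p = 0.5). The log2 ratio to bta-miR-143 differed by -0.18. The part that the cell makeup of the samples has in these ratios was not tested.

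**Figure D5:**
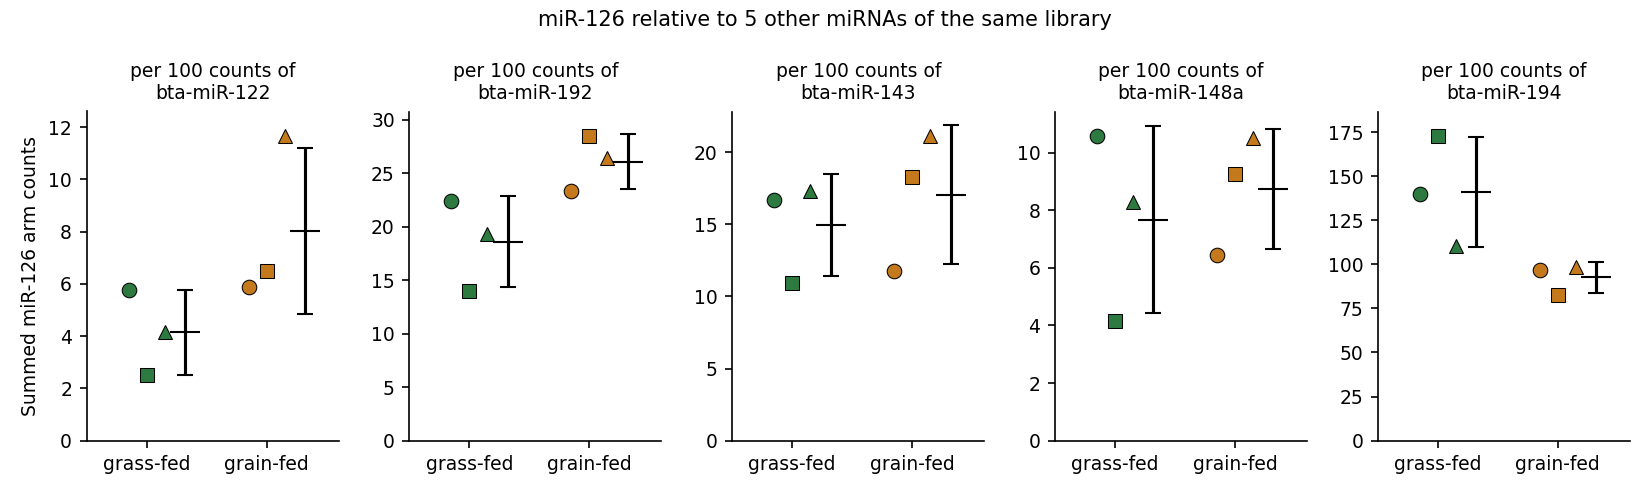
Summed counts of both miR-126 arms per 100 counts of bta-miR-122, bta-miR-192, bta-miR-143, bta-miR-148a and bta-miR-194 in the same library (vertical axes, from 0), by diet. Points are single animals, shaped by replicate number (circle 1, square 2, triangle 3), and black bars are the mean ± SD of 3 animals. The grass-fed animals lie below the grain-fed ones for bta-miR-122 and bta-miR-192 and above them for bta-miR-194, and the diets overlap for bta-miR-143 and bta-miR-148a.

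Markers of other cell types gave the setting for these values. The summed level of the 4 hepatocyte miRNAs was 516614 to 820705 CPM in grass-fed and 328202 to 389866 CPM in grain-fed liver, a sum in which bta-miR-122 and bta-miR-148a weigh most. Of the 4, bta-miR-122 and bta-miR-192 were called higher, where 9.43% of all tested miRNAs were, and bta-miR-194 had 9811 CPM on grass and 13211 CPM on grain without a call. Against the same 9.43%, 3 of 5 miRNAs of stellate and smooth muscle cells were called higher in grass-fed liver after TMM scaling. They were bta-miR-145 (edgeR FDR = 0.00599) and the 2 arms of 1 duplex, bta-miR-199a-3p (FDR = 0.0533) and bta-miR-199a-5p (FDR = 0.0517). Summed levels of the 5 were 79758 to 115821 CPM on grass and 73767 to 86467 CPM on grain, ranges that overlapped. In that sum bta-miR-143, which was not called, weighs most. The 5 leukocyte and 3 erythroid miRNAs had no call, where 19.1% of all tested miRNAs were called in either direction. In this order, summed levels were 743 to 993 against 943 to 1132 CPM and 419 to 643 against 465 to 665 CPM, grass-fed first. The leukocyte miRNAs had a median log2 fold change of -0.51, and only bta-miR-155 was higher on grass, at 0.40. bta-miR-142-5p, at -0.13, weighs most in the leukocyte sum. Of 5 miRNAs of biliary epithelium, bta-miR-200b was called higher and bta-miR-141 lower, and neither of the 2 tested of 3 skeletal muscle miRNAs was called. The summed miR-126 arms lay at 11449 to 16152 CPM in grass-fed and 9476 to 14335 CPM in grain-fed liver, ranges that overlapped.

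The profiles of the arms over the animals were alike, though each arm had closer neighbours. Likeness was measured as the root-mean-square difference between log2 CPM profiles over the 6 libraries, each centred on its mean, among 133 miRNAs with a mean of at least 100 CPM. The profiles of the arms differed by 0.19, against a median of 0.41 between other miRNAs and either arm, which put the 3p arm at place 5 of 132 from the 5p arm and the 5p arm at place 9 of 132 from the 3p arm. Closest to the 5p arm were bta-miR-378, bta-miR-151-3p and bta-miR-25, at 0.11, 0.14 and 0.16. Closest to the 3p arm were bta-miR-101, bta-miR-99b and bta-miR-21-5p, at 0.11, 0.12 and 0.13. None of these 6 miRNAs passed FDR 0.1 in edgeR. They were chosen for likeness to arms without a call, over the same libraries, so this follows largely from the choice. Within a diet both arms lay above the median standard deviation of log2 CPM, which was 0.27 over the 133 miRNAs. Of the other 132 miRNAs, 42 had a larger one than the 5p arm (0.32) and 58 had a larger one than the 3p arm (0.29).

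Other miRNAs with known roles in vessel growth were read from a list of 29, all of which were tested. Of these, 6 passed FDR 0.1 in edgeR, or 20.7%, close to the 19.1% of all tested miRNAs, and 23 did not. The median log2 fold change of the list was 0.12, beside 0.13 over all tested miRNAs. Called higher in grass-fed liver after TMM scaling were bta-miR-92a, bta-miR-320a, bta-miR-221, bta-miR-328 and bta-miR-296-3p, and called lower was bta-miR-16b. Over all tested miRNAs 9.43% were called higher and 9.65% lower. With total counts alone, which moved the median of all tested miRNAs from 0.13 to -0.29, edgeR called 0 higher and 4 lower, and 1 call was shared. Of all 456 tested miRNAs, 74 were called with total counts and 87 after TMM scaling, in either direction. The sign of the 6 fold changes called after TMM scaling stayed the same with total counts. Without grain-fed replicate 2 the number called in the list was 2, beside 49 of all 453 tested miRNAs.

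bta-miR-92a, a member of the miR-17/92 cluster that restrains vessel growth, had 5303 ± 1382 CPM on grass and 2797 ± 358 CPM on grain (SD, n = 3 each), a difference of 0.92 on the log2 scale (FDR = 0.0153, edgeR). bta-miR-221, which targets the receptor KIT in endothelial cells, had 121 ± 46.7 and 51.5 ± 18.7 CPM, a difference of 1.18 (FDR = 0.0493, edgeR). bta-miR-16b, of a family that represses VEGFA, had 229 ± 34.5 and 409 ± 48.6 CPM, a difference of -0.83 (FDR = 0.0235, edgeR). For bta-miR-320a, bta-miR-328 and bta-miR-296-3p the log2 differences were 0.89, 1.16 and 1.93. bta-miR-296-3p had only 204 counts over all libraries. The other arm, bta-miR-296-5p, is not on the list and was not called, at 0.56 (FDR = 0.750, edgeR). Which arm of miR-296 has the role in vessel growth was not checked here. The 3 most abundant members without a call were bta-miR-27b, bta-let-7f and bta-miR-100, with log2 fold changes of 0.17, 0.49 and 0.12. bta-miR-23b-3p of the list has the same counts as bta-miR-10174-3p in every library and cannot be told apart from it.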

How the data were processed

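Liver small RNA of 6 steers was sequenced, 1 library per animal, and groups came from the sample labels. The authors kept reads of 17 to 25 nt, aligned them to ARS-UCD1.2 and used miRDeep2, with a version and settings not given in the sources used here, to count the miRNAs of miRBase 22.0. As deposited, the counts are raw reads for 1207 pairs of a miRNA and a precursor. The CPM deposited beside them was not used.

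The largest count over precursors was taken. miRNAs having more than 2 counts in 2 or more libraries were scaled by TMM and tested in edgeR (version 4.0.16, R version 4.3.3) by its quasi-likelihood fit at FDR 0.1. Each standard error is the log2 fold change over the square root of F. The arm ratio was tested as the interaction of arm and diet with library as a block. Log2 CPM profiles used a prior count of 2. Exact permutation tests used scipy version 1.17.1. Alternatives used DESeq2 version 1.42.0, limma version 3.58.1, other scalings, filters, precursor sums, FDR 0.05, a block for replicate number, and single libraries left out, with 2 reference miRNAs added after the data were seen. The fits were tested on simulated data. The members and lists were chosen with earlier results of these data known. Named miRNAs were the arms, the 3 closest profiles of each, the marker lists, the called and the 3 most abundant other members of the vessel list, and the duplexes next to miR-126 or with the 3 largest called changes each way. Sequences were not used here, so miRNAs sharing a seed were not named.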

Additional observations from a re-analysis of the deposited data

How the results depend on the processing

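Neither arm of miR-126 passed the FDR threshold in edgeR, limma-voom or DESeq2 under any of the 17 alternatives, with FDR between 0.142 and 0.895 for the 5p arm and between 0.322 and 0.993 for the 3p arm. The FDR 0.05 setting, counted here and among the 13 of the arm ratio, could not call what FDR 0.1 had not. With total count scaling the log2 fold change turned to -0.073 for the 5p arm and -0.27 for the 3p arm. With at least 10 counts in 3 libraries it was 0.20 for the 5p arm and 0.003 for the 3p arm. With filterByExpr it was 0.22 and 0.026, 5p arm first. When single libraries were left out, the log2 fold change was between 0.11 and 0.41 for the 5p arm and between -0.10 and 0.23 for the 3p arm. The 3p arm turned to -0.10 without grass-fed replicate 1 and to -0.07 without grain-fed replicate 1. The arm ratio kept its direction and was not called in any of 13 alternatives (edgeR, limma or DESeq2 FDR 0.188 to 0.778), between 0.09 and 0.33 with each library left out.

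With the replicate number as a block, the log2 fold changes were 0.34 for the 5p arm and 0.12 for the 3p arm in edgeR, and the difference in log2 arm ratio was 0.21 in limma. The standard error of that arm ratio was 0.50 with the block and 0.26 without it. The block called 6 members of the vessel list, as without it, and changed no call of miR-126. Same-numbered libraries had correlations of -0.05, -0.20 and -0.01, where pairs with unlike numbers had -0.21 to 0.23. Whether the numbers stand for a shared preparation was not tested.

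The number called in the vessel list was 2 to 6 with each library left out, with 2 without grain-fed replicate 2. It was 9 (5 higher, 4 lower) with at least 10 counts in 3 libraries or with filterByExpr. Calls over all tested miRNAs in these 2 settings were 86 of 317 and 96 of 316, in this order, against 87 of 456 in the main fit. Without grain-fed replicate 2, all 453 tested miRNAs gave 49 calls in place of 87. The called duplexes were 7 of 36 and became 11 of 22 with at least 10 counts in 3 libraries and 4 of 36 with the block in limma. They were 4 of 34 without grass-fed replicate 1 and 12 of 35 without grass-fed replicate 3. The log2 ratio of miR-126 to bta-miR-122 differed by -1.24 to -0.64 with each library left out, and moved to -0.18 with bta-miR-143 as the reference. With bta-miR-148a and bta-miR-194 as references, both added after the data were seen, it moved to -0.26 and turned to 0.59. Counting error was below the spread between libraries of a diet for both arms, and 3 libraries per diet limit the precision.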
